A study of Macaca mulatta with 4 samples.

Results

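The 10 genes examined belong to the Hippo pathway and were measured in the RNA of rhesus macaque (Macaca mulatta) morulae, the compacting ball of cells that precedes the blastocyst. They were chosen by symbol: the co-activators YAP1 and WWTR1, their DNA-binding partners TEAD1, TEAD3 and TEAD4, the kinases LATS1 and LATS2, and the scaffolds AMOT, AMOTL2 and NF2. Of the 10, 9 matched an Ensembl identifier among the 21314 genes of the count table, each of them a single one, and TEAD4 had no matched identifier and was not analysed here. TEAD3 was listed at 0 in every library, so 8 genes could be tested. There were 2 libraries of AG morulae and 2 of GG morulae. The series calls its embryos androgenetic, carrying chromosomes of the father alone, and gynogenetic, carrying chromosomes of the mother alone. The labels name no strain, age, treatment or donor animal, nor how the embryos were made, and leave it unclear how many embryos went into a tube. No label ties a replicate to an animal of its own; the p-values below therefore rest on the spread between these libraries alone, which may be technical.

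The Hippo pathway couples cell contact and polarity to transcription. In inner cells of the early embryo, LATS kinases held at the junctions by angiomotins and NF2 phosphorylate YAP1 and its paralog TAZ, the product of WWTR1, and keep them out of the nucleus. In outer cells an apical domain draws angiomotins away from the kinases, YAP1 enters the nucleus, and with TEAD proteins it switches on genes of trophectoderm, the outer lineage that forms the placenta.

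Total estimated counts ran from 14129529 to 29733897 per library, and 15370 to 16313 genes had a count. Levels are in CPM, a gene's count scaled to a common library total after TMM adjustment, and differences are log2 fold changes of GG minus AG with a standard error (SE). A gene was called at a Benjamini-Hochberg adjusted p under 0.05 in edgeR's quasi-likelihood test, over all 13227 tested genes. By that rule 12.9% of tested genes were called, 6.34% higher and 6.58% lower in GG. CPM does not correct for transcript length, so levels are compared between libraries and not between genes. Exact Poisson intervals on single libraries and limits from a count of 0 cover counting error only. So do the exact intervals on ratios of counts and the Wilson intervals on shares, which leave out the spread between libraries.

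LATS1 was lower in GG than in AG morulae, and it was the only 1 of the 8 tested Hippo genes to pass the test. That share, 12.5%, lay beside 12.9% of all tested genes. Both GG libraries also lay below both AG libraries for YAP1 and NF2, and above them for AMOT, but none of these 3 passed the test. WWTR1, TEAD1, LATS2 and AMOTL2 overlapped between the groups. The 4 genes with separate groups compare with 64.1% of all tested genes (33.4% with GG above and 30.7% with GG below).

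YAP1 (ENSMMUG00000003396), the co-activator that Hippo signalling restrains, stood at 34.2 and 35.3 CPM in AG replicates 1 and 2 and at 17.0 and 20.9 CPM in GG replicates 1 and 2. The AG libraries nearly coincided, and the GG libraries lay below them with no overlap. The difference was -0.87 ± 0.32 SE (log2 fold change), with a 95% interval of -1.67 to -0.07. The edgeR p was 0.0376 before adjustment and 0.130 after it, so YAP1 was not called. Over the alternative settings and left-out libraries its log2 fold change stayed between -1.06 and -0.73 and its adjusted p between 0.0744 and 0.562. RNA came from whole morulae, in which fewer cells expressing a gene and less RNA per cell cannot be told apart.

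WWTR1 (ENSMMUG00000018982), the gene of TAZ, was thinly covered, with 27 and 137 counts in AG and 20 and 64 in GG. This gave 1.92 and 6.96 CPM in AG against 0.950 and 2.18 CPM in GG. AG replicate 2 was the high library, and AG replicate 1 lay between the GG libraries. The Poisson intervals of AG replicate 1 and GG replicate 2 overlapped (1.27 to 2.80 CPM and 1.68 to 2.79 CPM). The fitted difference was -1.499 ± 0.86 SE, with a 95% interval of -3.63 to 0.63 on the log2 scale and an edgeR adjusted p of 0.287. Without AG replicate 2 it was -0.30, and without GG replicate 2 it was -2.24; WWTR1 was not called in either fit.

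TEAD1 (ENSMMUG00000010875), which carries YAP1 and TAZ to DNA, stood at 3.28 and 7.82 CPM in AG and at 3.42 and 3.44 CPM in GG. Again AG replicate 2 stood apart, and the other 3 libraries lay within counting error of each other. The log2 fold change was -0.70 ± 0.62 SE (edgeR adjusted p = 0.490), and without AG replicate 2 it was 0.039. TEAD3 (ENSMMUG00000015909) was listed at 0 counts in all 4 libraries. A count of 0 allows up to 3 counts, a level of 0.214 and 0.152 CPM in AG replicates 1 and 2 and of 0.142 and 0.102 CPM in GG replicates 1 and 2.

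LATS1 (ENSMMUG00000009827), a kinase that phosphorylates YAP1 and TAZ, stood at 27.6 and 38.4 CPM in AG and at 9.12 and 9.51 CPM in GG. The 2 GG libraries were nearly equal, and both lay well under the lower AG library. The AG mean was 33.0 ± 7.69 CPM and the GG mean 9.32 ± 0.279 CPM (SD, n = 2 each), and LATS1 was fitted 3.54-fold higher in AG. This is a log2 fold change of -1.82 ± 0.37 SE (95% interval -2.73 to -0.92, edgeR adjusted p = 0.0361; DESeq2 adjusted p = 0.000119). Without GG replicate 1 or GG replicate 2 the log2 fold change was -1.79 and -1.88, and the edgeR adjusted p was 0.231 and 0.236; in those fits 120 and 69 genes were called in all.

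LATS2 (ENSMMUG00000019006), the paralog of LATS1 and itself a known YAP target, showed the widest spread of the Hippo genes within a group. It stood at 13.5 CPM in AG replicate 1 and 115 CPM in AG replicate 2, from 189 and 2256 counts, and at 19.9 and 13.0 CPM in GG. A single library was high, and AG replicate 1 lay between the 2 GG libraries. Its log2 fold change of -1.96 ± 0.94 SE was not called (edgeR adjusted p = 0.215). It was -2.80 without AG replicate 1 (adjusted p = 0.00818) and 0.25 without AG replicate 2 (adjusted p = 0.689), so its direction rested on that library.

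AMOT (ENSMMUG00000007688), an angiomotin that tethers YAP1 and activates LATS kinases at junctions, was the only tested Hippo gene with a positive fold change. It stood at 9.12 and 3.86 CPM in AG and at 14.4 and 12.7 CPM in GG. AG replicate 2, high for the genes above, was here the lowest library. AMOT had a log2 fold change of 1.06 ± 0.55 SE, with a 95% interval of -0.29 to 2.42 (edgeR adjusted p = 0.242); without AG replicate 1 it was 1.81 and was called (adjusted p = 0.0486), and without AG replicate 2 it was 0.54 and was not (adjusted p = 0.371).

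AMOT is X-linked, and X-linked genes as a whole differed in the same direction. Over 390 tested X-linked genes the median log2 fold change was 0.61, against 0.02 over 10147 autosomal genes, and 41.0% of the X-linked genes had a value at or above that of AMOT. The labels do not give the sex chromosomes of the embryos. DDX3Y, a Y-linked gene chosen after its values were seen, stood at 58.0 CPM in AG replicate 1 and 489 CPM in AG replicate 2, against 0.380 and 0.239 CPM in GG. The AG library with more DDX3Y thus had less AMOT; the part of sex chromosomes in the AMOT values was not tested.

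AMOTL2 (ENSMMUG00000021694), a related angiomotin and a YAP target, stood at 7.98 and 28.7 CPM in AG and at 18.4 and 11.9 CPM in GG. The GG libraries lay between the AG libraries. Its log2 fold change of -0.28 ± 0.66 SE (edgeR adjusted p = 0.807) had a 95% interval of -1.91 to 1.35 and turned to 0.89 without AG replicate 2.

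NF2 (ENSMMUG00000010311) encodes Merlin, which recruits LATS kinases to the membrane. It stood at 47.3 and 76.5 CPM in AG and at 39.2 and 31.3 CPM in GG. The groups did not overlap, but the gap between them was smaller than the difference between the AG libraries. NF2 had a log2 fold change of -0.81 ± 0.36 SE (95% interval -1.71 to 0.09, edgeR adjusted p = 0.189), and of -0.45 without AG replicate 2.

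**Figure D1:**
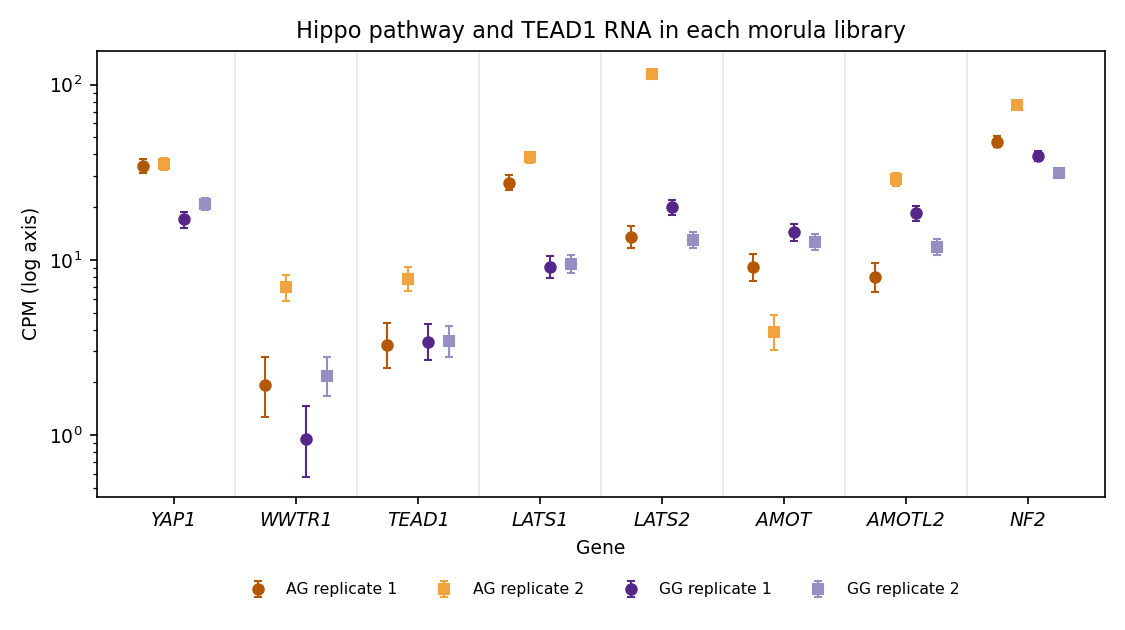
Level of the 8 tested Hippo genes in each library, in CPM on a log axis, with exact 95% Poisson intervals for counting error. Both GG libraries lie below both AG libraries for YAP1, LATS1 and NF2 and above them for AMOT, and AG replicate 2 is the highest library for 7 of the 8 genes.

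AG replicate 2 was the highest of the 4 libraries for 7 of the 8 tested genes, AMOT being the exception. Among all tested genes AG replicate 2 was highest for 23.2%. The median log2 fold change of the 8 genes was -0.84, against 0.04 over all tested genes, and 7 of the 8 were negative, against 48.9% of all tested genes. The 8 genes share libraries and were chosen by name, so these shares describe them and are no test.

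The 2 AG libraries differed more from each other than the 2 GG libraries did for 7 of the 8 tested Hippo genes, all but YAP1, and by the median over all tested genes. Measured as the ratio of the higher to the lower library after adding 0.5 CPM, the median over tested genes was 1.44 in AG and 1.25 in GG. For LATS2 the ratio was 8.24 in AG, a size reached by 1.07% of tested genes, and 1.51 in GG. It was 3.45 for AMOTL2, 3.08 for WWTR1, 2.21 for AMOT and 2.20 for TEAD1 in AG, values reached by 7.12% to 19.8% of tested genes. NF2 at 1.61, LATS1 at 1.39 and YAP1 at 1.03 differed less, and for YAP1 the GG ratio was the larger, at 1.22. In GG only WWTR1, at 1.85, exceeded 1.6, and TEAD1 and LATS1 had ratios of 1.01 and 1.04.

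**Figure D2:**
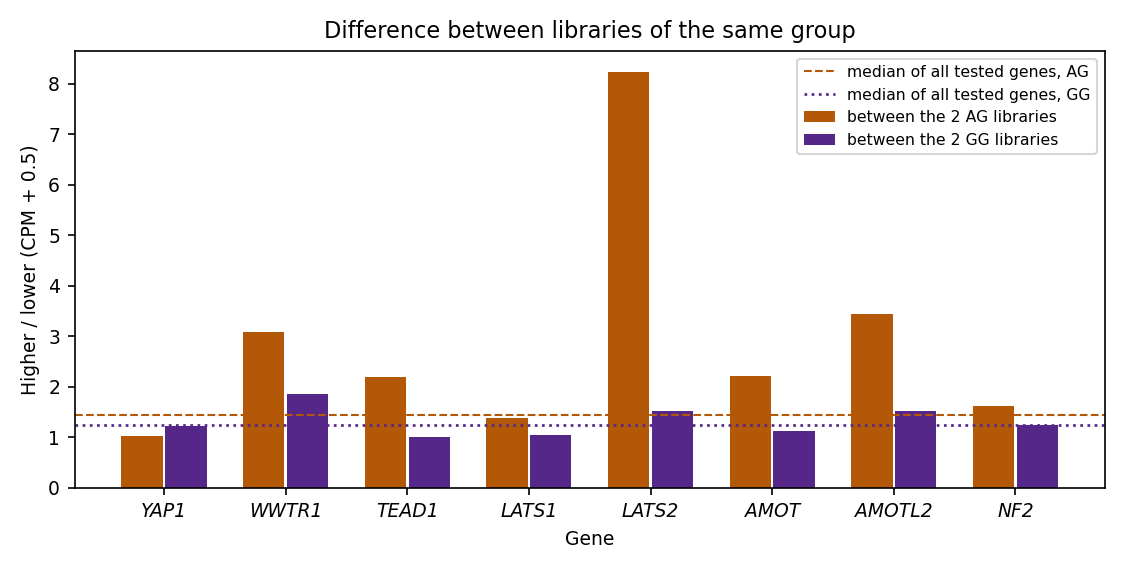
Ratio of the higher to the lower library of the same group, after adding 0.5 CPM, for each tested Hippo gene; dashed and dotted lines mark the medians of all tested genes, 1.44 in AG and 1.25 in GG. LATS2 in AG reaches 8.24, whereas YAP1 and LATS1 lie below the AG median.

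Within paralog families, the share of reads taken by each gene does not depend on scaling between libraries. These are shares of reads, so each is read across libraries only. Of the 576 and 3013 LATS reads in AG replicates 1 and 2, LATS1 took 67.2% (95% Wilson interval 63.3% to 70.9%) and 25.1% (23.6% to 26.7%). In GG it took 31.4% and 42.3%, between the AG values. The AG libraries thus lay on either side of both GG libraries.

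Of YAP1 and WWTR1 reads together, YAP1 took 94.7% and 83.5% in AG and 94.7% and 90.6% in GG. The TEAD shares cover TEAD1, TEAD2 and TEAD3 alone, since TEAD4 was not analysed here. Of these reads, which were 101 to 176 per library, TEAD1 took 37.1% (29.1% to 45.9%) and 90.1% (84.7% to 93.7%) in AG and 71.3% and 57.4% in GG. The remaining reads came from TEAD2 (ENSMMUG00000014791), at 5.56 and 0.863 CPM in AG and 1.38 and 2.56 CPM in GG. TEAD1 was higher and TEAD2 lower in AG replicate 2 than in AG replicate 1, and the TEAD1 shares of the GG libraries again lay between those of AG.

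Among angiomotins, AMOT took 52.9% and 11.8% of reads in AG and 42.1% and 47.6% in GG, and AMOTL2 took 46.3% and 88.0% in AG and 53.8% and 44.7% in GG. AMOTL1 (ENSMMUG00000001730), which is not among the 10 genes, took 0.826% and 0.156% in AG against 4.17% and 7.68% in GG, the only paralog share whose groups did not overlap. With 2 libraries against 2, an exact two-sided permutation test cannot go below p = 0.333; AMOTL1 gave that value, and the other shares 0.667 or 1.

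**Figure D3:**
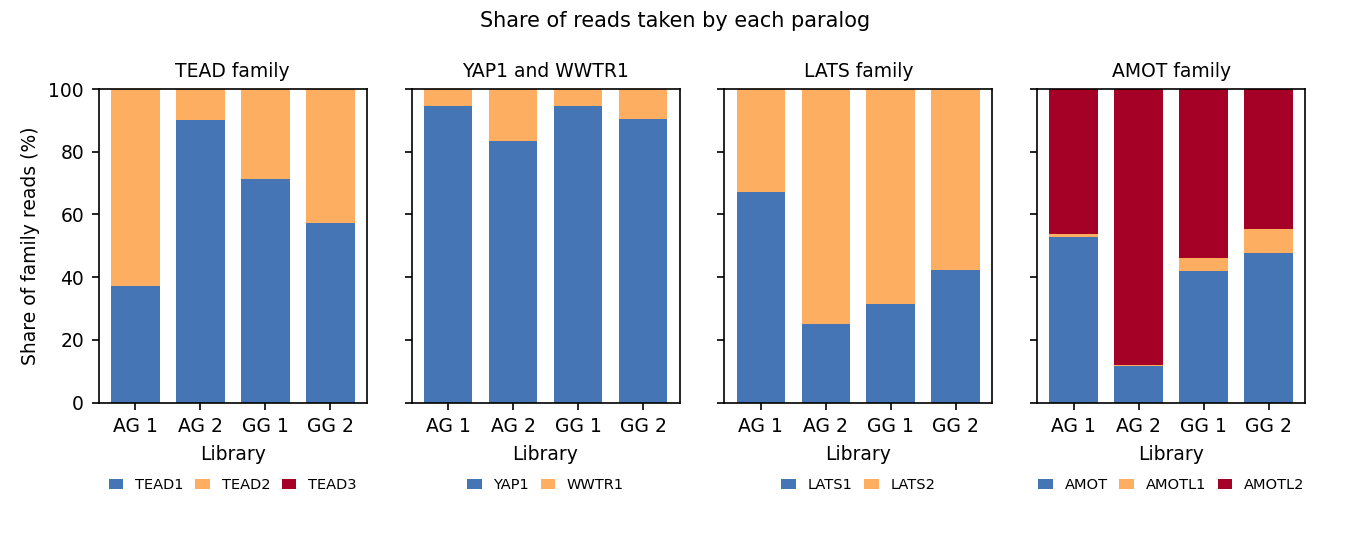
Share of reads (%) taken by each paralog within the TEAD, YAP1 and WWTR1, LATS and AMOT families in each library; the TEAD shares do not include TEAD4. The 2 AG libraries differ most in the LATS, TEAD and AMOT families: LATS1 takes 67.2% of LATS reads in AG replicate 1 and 25.1% in AG replicate 2.

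The core cascade around LATS was taken as its activating kinases, their scaffold SAV1, the MOB adaptors and the LATS-related kinases STK38 and STK38L. Of 14 genes listed, 11 were tested, 9.09% of which were called, beside 12.9% of all tested genes: STK3 was called higher in GG, 0 were called lower and 10 missed the threshold; the median log2 fold change was 0.26. STK3 (ENSMMUG00000028952), the kinase MST2 that activates LATS1 and LATS2, rose from 23.7 and 17.1 CPM in AG to 52.1 and 66.8 CPM in GG (a log2 difference of 1.55 ± 0.35 SE, edgeR adjusted p = 0.0443). STK3 and LATS1, neighbours in the cascade, thus moved in opposite directions. TNIK, a related kinase, had 2 and 5 counts in AG and 54 and 38 in GG (edgeR adjusted p = 0.0675), and TAOK2 and STK38 had log2 fold changes of 1.41 ± 0.64 and 1.18 ± 0.47 (adjusted p = 0.192 and 0.151). Both GG libraries lay above both AG libraries for 4 of the 11, and below them for 2, TAOK1 and STK38L. Over all tested genes these shares were 33.4% and 30.7%. TAOK1, STK38L and STK4, named after their values were seen, had log2 fold changes of -1.01 ± 0.50, -0.74 ± 0.47 and -0.15 ± 0.58. None of these was called (edgeR adjusted p = 0.224, 0.331 and 0.885).

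Of 28 regulators of the pathway listed, 26 were tested, 2 were higher in GG, 1 was lower and 23 were not called, with a median of 0.12. The share called, 11.5%, was near the 12.9% of all tested genes. AMOTL1, the third angiomotin, rose from 2 and 1 counts in AG to 30 and 60 in GG, a ratio of counts over adjusted totals of 20.1 (exact 95% interval 6.66 to 99.2; edgeR adjusted p = 0.0472). The call was lost when either AG library was left out (edgeR adjusted p = 0.0532 for the first and 0.0691 for the second) and after thinning the libraries to equal totals (0.0676). FRMD6 (ENSMMUG00000018274), a FERM-domain protein that acts upstream of the kinases, rose from 1.28 and 4.11 CPM to 20.7 and 30.3 CPM (a log2 difference of 3.22 ± 0.66 SE, edgeR adjusted p = 0.0372).

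CSNK1E (ENSMMUG00000010122), a casein kinase that marks phosphorylated YAP1 for degradation, fell in GG. It stood at 99.6 and 59.7 CPM in AG and at 19.7 and 10.8 CPM in GG (a log2 difference of -2.39 ± 0.46 SE, edgeR adjusted p = 0.0328). Every GG library lay below every AG library by a wide margin. DCHS1, a protocadherin, had 9 and 33 counts in AG and 1 and 0 in GG, a ratio of 62.7 (exact 95% interval 10.7 to 2536), and narrowly missed the threshold (edgeR adjusted p = 0.0548); it passed with DESeq2 (0.0344), without a filter (0.0494) and without AG replicate 1 (0.0423).

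On the DNA-binding side, 8 partners and cofactors of TEAD proteins were listed and 5 were tested, of which 1 was called higher in GG and 4 missed the threshold. That is 20% of a short list, beside 12.9% of all tested genes. NCOA2 (ENSMMUG00000015978), a co-activator of the p160 family whose members can bind TEAD proteins, rose from 1.64 and 1.63 CPM to 12.3 and 7.19 CPM (a log2 difference of 2.58 ± 0.56 SE, edgeR adjusted p = 0.0417). NCOA1 and NCOA3 had log2 fold changes of 1.67 ± 0.58 and -0.27 ± 0.48 (adjusted p = 0.115 and 0.740). NCOA1 passed with DESeq2 (adjusted p = 0.0208) and without AG replicate 2 (0.00561). Among the VGLL genes, whose products compete for TEAD, VGLL2 and VGLL3 were listed at 0 in all 4 libraries and VGLL1 had 6 counts in all. VGLL4, named after its values were seen, was tested, and with 8.55 and 24.0 CPM in AG and 12.4 and 13.8 CPM in GG it missed the threshold (edgeR adjusted p = 0.745).

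Polarity and junction genes, which position the pathway in outer cells, included 16 tested of 21 listed. In GG, 2 were higher, 1 was lower and 13 were not called; the median was 0.13. The share called was 18.8%, or 3 genes, beside 12.9% of all tested genes. CDH1 (ENSMMUG00000011850), the gene of E-cadherin, rose from 12.0 and 15.1 CPM to 49.6 and 67.7 CPM (a log2 difference of 2.11 ± 0.35 SE, edgeR adjusted p = 0.0261). CTNNA1 (ENSMMUG00000017985), which links cadherins to actin, rose from 48.6 and 65.2 CPM to 135 and 155 CPM (a log2 difference of 1.35 ± 0.29 SE, edgeR adjusted p = 0.0403). ROCK2 (ENSMMUG00000016678), a kinase of actomyosin contraction, fell from 133 and 153 CPM to 56.9 and 62.9 CPM (a log2 difference of -1.25 ± 0.26 SE, edgeR adjusted p = 0.0390).

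Of the 16 tested polarity and junction genes, both GG libraries lay above both AG libraries for 7 and below them for 5. Over all tested genes these shares were 33.4% and 30.7%. PALS1, named after its values were seen, stood at 106 and 43.7 CPM in AG and 19.4 and 32.7 CPM in GG. It was not called (edgeR adjusted p = 0.112). PATJ, a scaffold of the apical Crumbs complex, stood at 16.03 and 50.4 CPM in AG and 150 and 155 CPM in GG. Its edgeR adjusted p of 0.0566 missed the threshold, but it was called in 7 of the 11 alternatives (adjusted p = 0.000602 to 0.0478 in those). Leaving out either GG library removed every call in the 10 genes and in the core-cascade, regulator, cofactor, polarity and target lists.

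**Figure D4:**
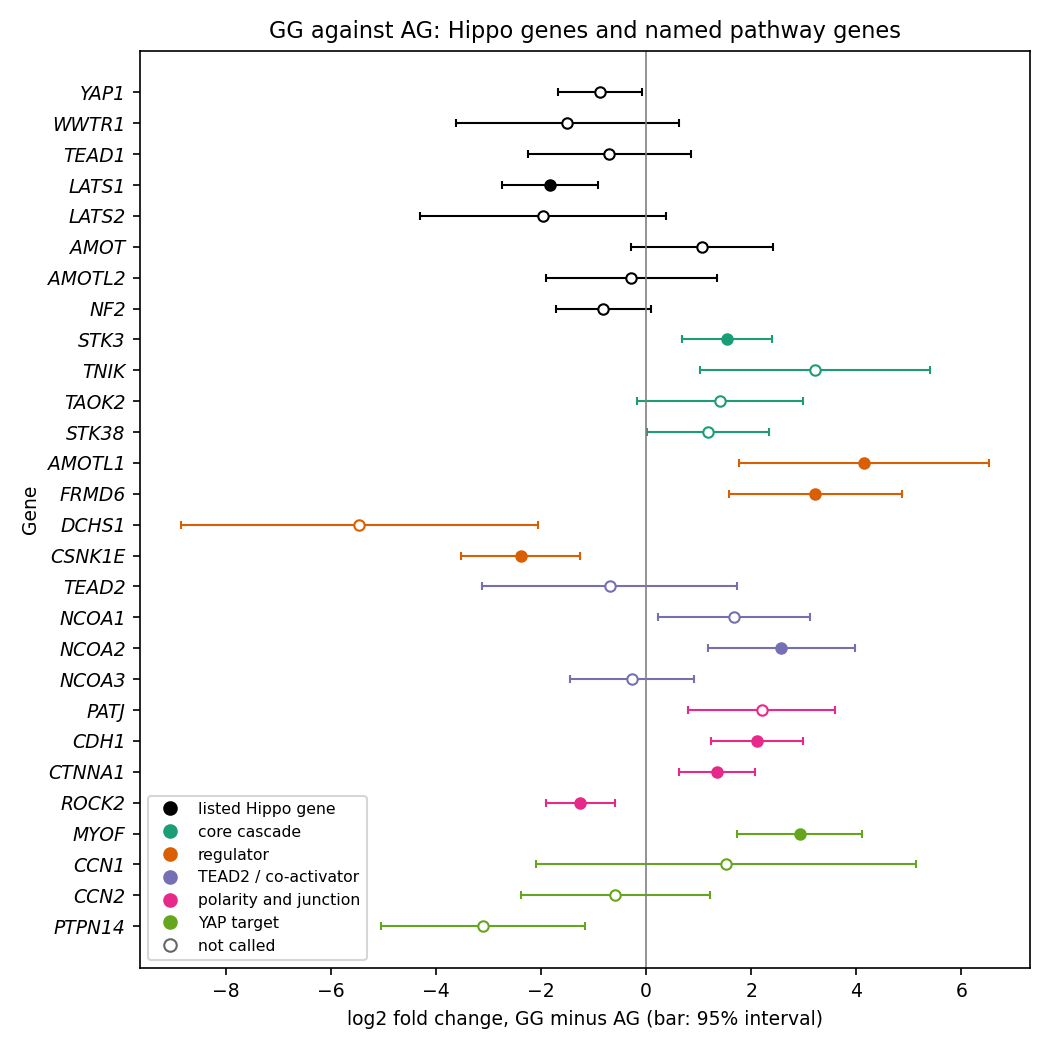
Log2 fold change of GG minus AG, with its 95% interval, for the tested Hippo genes (black) and the named genes of each pathway list; filled points were called. LATS1 is the only called Hippo gene, while STK3, AMOTL1, FRMD6, NCOA2, CDH1, CTNNA1 and MYOF were called higher and CSNK1E and ROCK2 lower in GG; AMOTL1 and DCHS1 rest on 3 counts or fewer in a group, so their fitted values are no bound.

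Genes known as YAP and TEAD targets in other cells did not share a direction. Of 22 listed, which include LATS2 and AMOTL2, 11 were tested: MYOF was called higher in GG, 0 were called lower and 10 missed the threshold, with a median of -0.16. The share called, 9.09%, compares with 12.9% of all tested genes. MYOF (ENSMMUG00000006841), a membrane-repair gene, rose from 6.55 and 4.37 CPM to 53.7 and 29.2 CPM (a log2 difference of 2.93 ± 0.48 SE, edgeR adjusted p = 0.0250). Among targets too low to test, ANKRD1 and FJX1 were named after their values were seen. ANKRD1 had 0 and 0 counts in AG and 15 and 12 in GG, and FJX1 had 12 and 0 in AG and 0 and 0 in GG. The classical targets CCN1 and CCN2 were low throughout, CCN1 with 0 and 32 counts in AG and 68 and 47 in GG, and CCN2 with 16 and 41 in AG and 26 and 27 in GG. Neither was called, although CCN1 was called without AG replicate 2 (edgeR adjusted p = 0.0231), which left it at 0 counts in AG.

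PTPN14, a phosphatase that is both a YAP target and a YAP inhibitor and stands in both lists, stood at 5.63 and 22.8 CPM in AG and at 1.71 and 1.60 CPM in GG (a log2 difference of -3.10 ± 0.78 SE, edgeR adjusted p = 0.0554; DESeq2 adjusted p = 0.000545), and the difference was -1.79 without AG replicate 2. Like LATS2 and AMOTL2 it was highest in AG replicate 2. Of the 11 tested targets 6 were highest in that library, and 4 of the 9 that are not among the 10 Hippo genes, beside 23.2% of all tested genes. These counts describe a short list and are no test. The summed level of the list was 48.8 and 193 CPM in AG and 120 and 69.5 CPM in GG, of which LATS2 alone gave 115 CPM in AG replicate 2. Without LATS2 and AMOTL2 the sums were 27.4 and 49.6 CPM in AG and 81.7 and 44.6 CPM in GG, with GG replicate 1 the highest.

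Genes that mark outer and inner cells also differed between the groups. Of 14 tested outer-cell and trophectoderm genes, 6 were higher in GG, 0 were lower and 8 were not called; the median log2 fold change was 2.90, also with GATA2 at its bound. The share called was 42.9%, beside 12.9% of all tested genes. The lists were chosen with earlier results of these data known, so such shares describe them and are no test. S100P, a calcium-binding protein, CLDN4, a claudin of tight junctions, and ELF3, an epithelial transcription factor, were called, as was GATA2, a trophectoderm factor. Neither AG library had a GATA2 count, and against 3 counts over the AG group its level in GG was at least 38.2-fold higher. KRT18, a keratin, and TBX3, named after their values were seen, were the remaining calls. The list did not move as a whole. In 9 of the 14 both GG libraries lay above both AG libraries, beside 33.4% of all tested genes. In 3 they lay below, beside 30.7%. These were TFAP2C, DAB2 and SLC7A2, also named after their values were seen and not called. SLC7A2, an amino acid transporter, stood at 21.9 and 56.0 CPM in AG and 9.78 and 6.96 CPM in GG (edgeR adjusted p = 0.0539), and TFAP2C and DAB2 had log2 fold changes of -0.96 ± 0.28 and -1.73 ± 0.56 (adjusted p = 0.0779 and 0.0960). Of 4 tested inner-cell genes 2 were called lower in GG, KLF17 and DPPA4. This was 50% of a short list, beside 12.9% of all tested genes called. NANOG and POU5F1 had positive log2 fold changes and were not called. POU5F1 stood at 181 and 389 CPM in AG and 465 and 479 CPM in GG, with no overlap (0.73 ± 0.39 SE, edgeR adjusted p = 0.256). NANOG stood at 151 and 25.0 CPM in AG and 129 and 141 CPM in GG, so AG replicate 2 was the low library.

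Other gene groups moved with the same contrast. All 5 tested genes of embryonic genome activation were called lower in GG, beside 6.58% of all tested genes. Their summed levels were 2605 and 1713 CPM in AG and 41.7 and 43.0 CPM in GG. The morula and pluripotency markers POU5F1, NANOG, TFAP2C, DPPA4, DPPA2, KLF17 and DNMT3L all had counts in every library. Of these 7, DPPA2 was called higher in GG and DPPA4 and KLF17 lower, 42.9% beside 12.9% of all tested genes. DPPA2 stood at 101 and 28.4 CPM in AG and 488 and 820 CPM in GG (edgeR adjusted p = 0.0348). DNMT3L had a log2 fold change of 1.64 ± 0.54 SE and was not called (edgeR adjusted p = 0.102). Sperm markers summed to 1.63 to 2.78 CPM in AG and 1.19 to 1.42 CPM in GG, with 1 of 7 tested, 0 called, and PRM2, TNP2 and ODF1 at 0. Markers of cumulus cells summed to 9.90 and 18.9 CPM in AG and 18.8 and 43.8 CPM in GG, with 3 of 8 tested, 0 called, and FSHR at 0. The largest part in each library was CYP11A1, at 3.21 and 15.8 CPM in AG and 13.1 and 29.3 CPM in GG. Blood markers summed to 146 and 68.5 CPM in AG and 12.3 and 16.1 CPM in GG, with 4 of 6 tested. Of these 2 were called, both lower in GG, among them PTPRC, which made up most of the AG sum. LYZ went the other way, at 0.427 and 1.27 CPM in AG and 5.37 and 9.82 CPM in GG, and missed the threshold (edgeR adjusted p = 0.0533). CD3E had 1 count in all. The part of these groups in the LATS1, STK3 or CSNK1E differences was not tested.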

How the data were processed

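RNA of 4 macaque morula libraries (2 AG, 2 GG) was analysed. The deposited table holds estimated counts per Ensembl gene, unscaled, 30.0% to 32.2% of them not whole. Per the submitters' processing notes, Trim Galore, STAR 2.6.0c, Salmon 0.12.0 and build rheMac8 were used, without role or order; the labels' protocols give amplification with a SMARTer low-input kit. For annotation release, strand and filters: not given in the sources used here. Reads shared by similar transcripts are apportioned in such estimates.

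Counts were rounded and tested in edgeR 4.0.16 (R 4.3.3): filterByExpr (minimum count 10, minimum total 15), TMM, quasi-likelihood F test on group alone, Benjamini-Hochberg adjustment. SEs are those implied by F. DESeq2 1.42.0 was an alternative. Scripts were tested on simulated data. Symbols matched 14654 of 21314 identifiers (68.8%); chromosomes came by symbol from assembly T2T-MMU8v2.0, and no coordinates were used. The Hippo genes and lists were chosen with earlier results of these data known. The text names the 10 genes, TEAD2, AMOTL1 and up to 4 tested genes with the smallest p per pathway list; others are named where marked, or as markers; 1 marker gene is not reported here. Other settings tried were 2 normalizations, 2 filters, thinning, a replicate block and leaving out each library.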

Additional observations from a re-analysis of the deposited data

How the results depend on the processing

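Across all genes, 1709 calls became 3333 with DESeq2 and 2609 without a filter, and 69 to 3942 when a library was left out. Of the Hippo genes 1 was called with edgeR under every normalization, filter, thinning and block, and with DESeq2, and 0 to 3 when a library was left out (LATS1, LATS2 and AMOT without AG replicate 1). A minimum mean of 10 CPM left 5 of the 8 in the test. Log2 fold changes that changed sign without AG replicate 2 ran, with a library left out, from -1.19 to 0.039 for TEAD1, -2.80 to 0.25 for LATS2, -0.93 to 0.89 for AMOTL2 and -0.18 to 2.43 for NANOG; those that did so without AG replicate 1 ran from -1.51 to 1.19 for TEAD2 and -0.79 to 0.48 for NCOA3. The cause was not tested. With a library left out, calls ran from 0 to 2 in the core cascade, 0 to 6 in regulators, 0 to 2 in cofactors, 0 to 7 in polarity genes, 0 to 3 in targets, 2 to 9 in outer-cell genes and 0 to 3 in inner-cell genes. DESeq2 called 8 regulators, 2 cofactors, 7 polarity genes, 2 targets and 10 outer-cell genes. Over all genes it called 25.7%, against 12.9% with edgeR. Without a filter 8 regulators, 6 polarity genes and 2 targets were called, thinning gave 2 targets, and a minimum mean of 10 CPM 0 cofactors. GG minus AG shares, in percentage points, were 0.759 for TEAD1 (-25.7 to 27.2 with a library left out), 3.53 for YAP1 (-2.04 to 9.10), -9.31 for LATS1 (-30.3 to 11.7), 12.5 for AMOT (-8.04 to 33.0), 5.43 for AMOTL1 (3.68 to 7.19) and -17.9 for AMOTL2 (-38.8 to 2.94). The X-linked median exceeded the autosomal one by 0.59 (0.318 to 0.995 with a library left out).

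The labels do not say that a replicate number marks a shared animal or day, and same-numbered libraries deviated together only weakly (r = 0.0986 across 13227 genes). With the replicate block 1697 genes were called in all, LATS1 stayed called (adjusted p = 0.0411), and STK3, NCOA2 and AMOTL1 passed the threshold no longer (adjusted p = 0.0549, 0.0523 and 0.0756), which left 0 calls in the core cascade and 0 in the cofactor list; PATJ was called (0.0349).

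Low counts limit WWTR1, TEAD1 and TEAD3 among the Hippo genes, and TEAD2, AMOTL1, TNIK, DCHS1, CCN1 and CCN2 among the others named. Shares per coding length were not run, as no lengths were used here. Summing identifiers did not apply, since 0 Hippo genes had more than 1. Motif searches were not run.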

Other observations

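Genes of 2 complexes around the kinases, chosen after their values were seen, are given here as values. Among STRIPAK components, which hold phosphatase activity against the kinases that activate LATS, STRN stood at 23.6 and 65.7 CPM in AG and 12.1 and 14.2 CPM in GG, and its paralog STRN3 at 26.1 and 26.7 CPM in AG and 42.4 and 41.2 CPM in GG. STRN and STRN3 thus had log2 fold changes of opposite sign, -1.76 ± 0.55 and 0.66 ± 0.30, and neither was called (edgeR adjusted p = 0.0881 and 0.191). Another striatin gene, STRN4, had 0.50 ± 0.85 and was not called either (edgeR adjusted p = 0.730). Among the YWHA adaptors that retain phosphorylated YAP1 in the cytoplasm, YWHAZ stood at 1083 and 1140 CPM in AG and 806 and 763 CPM in GG, and YWHAB at 533 and 408 CPM in AG and 599 and 663 CPM in GG, again without a call (adjusted p = 0.155 and 0.284). YWHAE, YWHAH and YWHAQ had log2 fold changes of 0.038, -0.10 and -0.075 and were not called. WWC2, a scaffold of LATS kinases outside these complexes, was also chosen after its values were seen. It stood at 2.07 and 5.28 CPM in AG and 15.3 and 16.5 CPM in GG, and it missed the threshold (edgeR adjusted p = 0.0680). Its paralog WWC1 overlapped between the groups, at 3.35 and 12.8 CPM in AG and 11.0 and 10.9 CPM in GG (edgeR adjusted p = 0.706).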
